A study of Rattus norvegicus with 12 samples.

Results

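The comparison is of rat kidney 4 weeks after birth (Wk4) with rat kidney at embryonic day 13 (E13), the earliest and the most mature stage measured, and it rests on 6 of the 12 arrays of the study, chosen by their labels. RNA was measured on Affymetrix expression arrays, with 3 arrays at E13, 4 at embryonic day 18 (E18) and 3 at Wk4. The remaining 2 arrays hold recombined tissue cultured for 6 days, made of UBs formed in vitro and MM. The study's design asked whether that tissue follows normal kidney development, with the 3 kidney stages as its reference and a 3-fold difference as its measure of change. Here the recombined arrays served only to estimate the spread, and E18 served to show when, between the ends, each gene moved. The kidneys carried no treatment or genetic change that the labels name, and embryonic kidneys were processed directly after dissection. Strain, sex, litter and any pooling of kidneys are not given in the labels, nor is it said that replicates came from separate animals. The p-values therefore rest on how far these samples lie apart, and that spread may be technical.

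The permanent kidney forms when the ureteric bud, an outgrowth of epithelium, enters the metanephric mesenchyme and branches. Mesenchymal progenitors around the bud tips renew themselves and turn into epithelial vesicles that lengthen into nephrons, while the bud becomes the collecting duct system and the surrounding stroma gives rise to interstitial and vascular support cells. In the mature rat kidney the proximal tubule makes up much of the tissue and reclaims filtered salt, sugar, amino acids and protein, the thick ascending limb and distal tubule dilute the urine, and the collecting duct sets its final water and acid content. In whole kidney, fewer cells of a type and less RNA per cell cannot be told apart.

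In what follows a level is the deposited probe set signal, given per array or as mean ± SD. A difference is Wk4 minus E13, fitted with limma on the log2(signal + 271.2) scale and given ± SE. A gene was called when its Benjamini-Hochberg adjusted p was under 0.05 and its fitted change at least 3-fold, and rose, fell and changed are used only of called genes. Each gene is represented by a single probe set. Of 22599 probe sets, 2123 were called higher at Wk4 (9.39%) and 1912 lower (8.46%). Of 11920 genes, 1401 rose (11.8%) and 1122 fell (9.41%), against a median difference over all genes of -0.068. A change of 32-fold or more on the fitted scale was found for 150 genes that rose and 16 that fell. All E13 arrays lay at or below their array's 40th percentile for 462 of the genes that rose, and all Wk4 arrays did for 263 of those that fell. For such genes the fitted difference depends on the constant added before taking logs.

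The array medians lay between 799 and 898 over the 6 arrays. E13 replicate 1 stood apart from the other E13 arrays: its residuals went with those of E18 replicates 1 to 3 (correlations of 0.25 to 0.31 across probe sets), while E13 replicates 2 and 3 went with E18 replicate 4 (0.41 and 0.38). Without E13 replicate 1, 2192 probe sets were called higher and 2033 lower. Against that array alone, which has no spread of its own and was assumed to vary like the other groups, the counts were 2120 and 1958. The ratio of 3′ to 5′ signal of the Gapdh control, a sign of RNA integrity and labelling, was 1.32 to 1.34 at Wk4 and 1.04 to 1.19 at E13. Its part in the results was not tested. The Y-linked gene Eif2s3y was present on all 6 arrays, at 8536, 9189.95 and 7926 at E13 and 6053, 7871 and 6151 at Wk4. Xist, the RNA of the inactive X chromosome of female cells, stood at 29496, 65269.5 and 63032 at E13 and at 23.5, 29.7 and 55.8 at Wk4. The E13 arrays thus carried both signals and the Wk4 arrays the Y-linked one, so the stage and the sex make-up of the samples cannot be told apart for genes that depend on sex. At E18, replicate 2 carried the Xist signal alone and replicates 1, 3 and 4 the Y-linked one. The part of this difference within E18 in the 2 steps was not tested.

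The genes that rose furthest belonged mostly to the proximal tubule. They were ranked only among called genes whose E13 and Wk4 arrays did not overlap, so the separation of their arrays follows from that choice. Kap, which encodes an androgen-regulated protein of proximal tubule cells, had signals of 19.6, 60.04 and 73.5 on the E13 arrays and 217003, 185113 and 174971 on the Wk4 arrays. All Wk4 arrays were far above all E13 arrays, with a difference of 9.22 ± 0.15 (limma adjusted p = 4.16e-14), and the sex make-up described above moves with this result. Sult1c2a, a sulfotransferase gene, went from 90.1 ± 87.7 to 145009 ± 19133 (SD, n = 3 each; difference 8.67 ± 0.32). Hao2, a peroxisomal hydroxyacid oxidase gene, had 342, 133 and 120.2 at E13 and 191915, 157488 and 137153 at Wk4. Cyp2c23, which encodes an epoxygenase of arachidonic acid, had 90.1, 49.1 and 42.1 and 121021, 101694 and 99776. In both genes the groups were separated by a gap wider than the range within either group, and the differences were 8.45 ± 0.21 and 8.34 ± 0.24. Miox, the kidney enzyme that breaks down myo-inositol, rose by 7.90 ± 0.23 and the gluconeogenic enzyme gene Fbp1 by 7.79 ± 0.30. Slc7a13, an amino acid transporter gene of the proximal straight tubule, rose by 8.26 ± 0.18. From the thick ascending limb and distal tubule list, Umod, the gene of uromodulin, the most abundant urinary protein in health, rose by 8.28 ± 0.24. Fxyd2, on the same list, encodes a small subunit that tunes the sodium pump and rose by 7.86 ± 0.19.

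The genes that fell furthest were embryonic globins, imprinted growth genes and retinoid-binding protein genes. They too were ranked only among called genes whose arrays did not overlap. Hbz, the embryonic alpha-like globin, stood at 110258, 95855 and 132055 at E13 and at 41.8, 60.1 and 85.8 at Wk4, a difference of -8.39 ± 0.25 (limma adjusted p = 2.77e-12). The beta-like embryonic globins Hbe1 (-8.37 ± 0.29) and Hbg1 (-7.93 ± 0.24) fell by similar amounts. Igf2, the fetal growth factor gene expressed from the paternal allele, went from 106633, 86168 and 96165 to 2396, 1061 and 1383, and every Wk4 array was below every E13 array (difference -5.74 ± 0.21). Mest, another imprinted gene, fell from 49537 ± 18049 to 846 ± 189 (SD, n = 3 each; -5.43 ± 0.29). Crabp1 and Crabp2, which encode proteins that hold retinoic acid in the cell, went from 40927 ± 5708 to 595 ± 203 and from 25971 ± 2104 to 296 ± 90.9. Tmsb15b2, a thymosin beta gene (-5.72 ± 0.17), and Fndc3c1 (-5.88 ± 0.23) also fell. Xist fell by 7.34 on the log2 scale (adjusted p = 0.000411), beside the sex make-up given above.

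**Figure D1:**
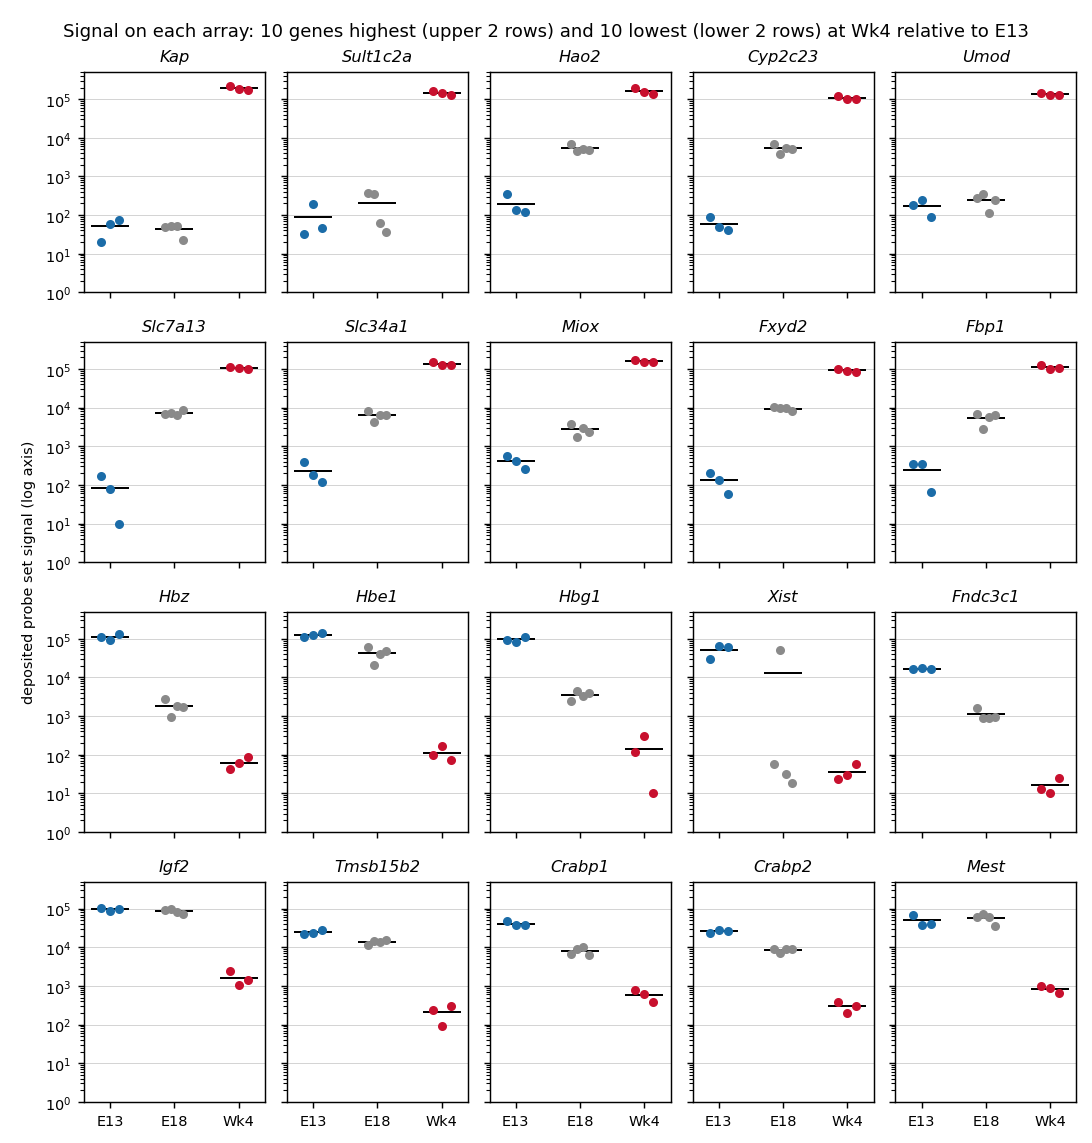
Deposited probe set signal (log axis) on each E13, E18 and Wk4 array for the 10 named genes with the highest and the 10 with the lowest Wk4 minus E13 difference; points are arrays and bars group means. Hao2 and Cyp2c23 already lay between the ends at E18, while Kap and Umod were not called from E13 to E18.

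Of 31 measured genes for uptake and the brush border of the proximal tubule, 30 rose and 0 fell, with a median difference of 5.44, against 11.8% of all genes rising and a median of -0.068. Slc34a1, the sodium-phosphate cotransporter that the kidney uses to reclaim phosphate, had 385, 178 and 116 at E13, 8147, 4205, 6614 and 6350.0 at E18 and 156154, 128491 and 128050 at Wk4. The 3 stages did not overlap, and the total difference was 8.14 ± 0.27 (limma adjusted p = 6.02e-12). Slc13a3, the dicarboxylate transporter gene of the basal side, rose by 7.78 ± 0.21. Cltrn, which encodes collectrin, a partner needed to place amino acid transporters in the brush border, rose by 7.67 ± 0.29, and Slc3a1, the heavy subunit of the cystine transporter, by 6.55 ± 0.18. The genes of the protein uptake receptor rose together: Lrp2 (megalin) by 5.64 ± 0.25, Cubn (cubilin) by 6.30 ± 0.23 and Amn, its anchor, by 6.61 ± 0.14. The other probe sets of Amn (3.09) and Slc34a1 (5.68) had smaller differences, still past 3-fold. Among glucose carriers, Slc5a2, the main sodium-glucose cotransporter, rose by 5.44 ± 0.19 and Slc2a2, the basal exit carrier, by 5.28 ± 0.16. Slc5a1, the cotransporter of the late proximal tubule, was the member that was not called, at 1.49 ± 0.27 (adjusted p = 0.000245), below the 3-fold limit. The water channel gene Aqp1 went from 946 ± 56.8 to 33956 ± 1710.3, and the sodium-proton exchanger gene Slc9a3 from 223 ± 147 to 12147 ± 801 (SD, n = 3 each).

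Organic ion transporters move drugs, urate and metabolites across proximal cells. Of 19 such genes, 16 rose (84.2%) and 0 fell, beside 11.8% and 9.41% of all genes (median difference 4.46). The urate exchanger gene Slc22a12 had 8.58, 121 and 46.1 at E13 and 31247, 35961 and 30462 at Wk4, with no overlap (difference 6.65 ± 0.29). The organic anion transporter genes Slc22a6 (6.61 ± 0.23) and Slc22a8 (6.14 ± 0.19, its other probe set 3.36) rose, as did the organic cation carriers Slc22a2 (6.19 ± 0.25) and Slc47a1 (6.49 ± 0.31). The efflux pump genes were mixed: Abcg2 (3.28 ± 0.15) and Abcc4 (2.87 ± 0.16) rose, while Abcb1a (1.496 ± 0.24) and Abcc2 (1.20 ± 0.20) had positive differences under 3-fold in the probe sets used; the other probe set of Abcb1a was past 3-fold, at 1.97. Slco1a4, an organic anion carrier, was at 0.53 ± 0.21.

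Of 31 genes of proximal metabolism and detoxification, 28 rose (90.3%) and 0 fell, beside 11.8% and 9.41% of all genes. The median difference was 6.15. Gluconeogenesis was represented by Pck1 (7.79 ± 0.18) and Fbp1, and amino acid handling by Agxt2 (7.55 ± 0.31), an aminotransferase, Dao (7.50 ± 0.19), the D-amino acid oxidase, and Ass1 (7.32 ± 0.18), which makes argininosuccinate for arginine synthesis. Gatm, which catalyses the first step of creatine synthesis, rose by 6.24 ± 0.20, and Gamt, the second step, which is mainly hepatic, by 3.12 ± 0.14. Detoxification genes included Gsta1 (7.27 ± 0.26), Fmo1 (6.15 ± 0.26) and Cyp4a8 (7.21 ± 0.17). Not called were Cyp27b1, which activates vitamin D (0.62 ± 0.24), Gstm1 (0.40 ± 0.19) and Ugt2b7 (1.16 ± 0.28).

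Promoters of Slc34a1 and Agxt2 are shown because both genes rose in each step and their windows hold letters of the hepatocyte nuclear factor sites that are known in proximal tubule genes. The windows run from 250 bases before to 50 bases after the transcription start, from RefSeq on GRCr8, at chr17:9238934-9239233, minus strand, and chr2:61063166-61063465, plus strand. Capitals mark GTTAAT, part of the sequence that HNF1 recognises, and CAAAGTCC, the core of an HNF4 site, searched on both strands; on the opposite strand they read ATTAAC and GGACTTTG. In Slc34a1 the HNF1 letters begin 147 and 120 bases before the start and the HNF4 letters 66 bases before it, and in Agxt2 the HNF4 letters begin 48 bases before it.
Slc34a1: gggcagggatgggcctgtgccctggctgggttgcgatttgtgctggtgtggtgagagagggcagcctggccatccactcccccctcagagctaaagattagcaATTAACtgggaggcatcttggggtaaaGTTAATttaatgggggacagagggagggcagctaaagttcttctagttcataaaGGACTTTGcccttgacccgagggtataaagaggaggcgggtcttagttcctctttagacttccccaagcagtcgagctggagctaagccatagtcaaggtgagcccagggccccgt
Agxt2: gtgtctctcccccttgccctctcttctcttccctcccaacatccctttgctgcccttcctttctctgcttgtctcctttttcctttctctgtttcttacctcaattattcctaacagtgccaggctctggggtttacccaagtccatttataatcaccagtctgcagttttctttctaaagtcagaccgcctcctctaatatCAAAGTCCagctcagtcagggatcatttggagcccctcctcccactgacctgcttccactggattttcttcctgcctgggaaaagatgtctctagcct
Among 75 promoters of the 3 proximal lists, 12 held GTTAAT (16%) and 7 held CAAAGTCC (9.33%). Over the 9862 genes tested that have a promoter in the table these shares were 4.39% and 1.34%, and over all 27457 promoters 7.37% and 1.38%. GTTAAT was also found in thick ascending limb and distal promoters (3 of 18, 16.7%), and its share was 12.5% for the ureteric bud tip, 12% for ribosomal proteins and 11.1% for the collecting duct, so it was not limited to proximal genes. CAAAGTCC was found in 1 of 11 erythroid (9.09%), 1 of 17 early nephron (5.88%) and 1 of 21 fibrillar matrix promoters (4.76%). It was found in none of the 18 thick ascending limb and distal or the 18 collecting duct promoters. At a share of 1.34% over the genes tested, 18 promoters are too few to read a 0. The motifs were chosen after several had been looked at, so the shares are a description, and a match is not a site shown to be used. Hnf4a itself, the factor of the HNF4 site, had 46.5, 40.5 and 19.8 at E13 and 61741, 61799 and 68813 at Wk4. It rose by 7.71 ± 0.16 in the probe set used, and its 3 probe sets ran from 3.66 to 7.71.

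Of 22 thick ascending limb and distal tubule genes, 17 rose (77.3%) and 0 fell, beside 11.8% and 9.41% of all genes (median difference 3.94). Umod had 188, 245 and 88.8 at E13, 270.2, 346, 111 and 252 at E18 and 146813, 132126 and 131959 at Wk4, so nearly the whole difference came after E18. Slc12a1, the salt cotransporter of the same limb, had 187, 168 and 67.2, then 18218, 13510.5, 16944 and 15292, then 43011, 47053 and 35044. Of its total difference of 6.67 ± 0.17, 79.5% had been reached at E18. The potassium channel genes Kcnj16 (6.64 ± 0.19) and Kcnj1 (5.17 ± 0.20), which return potassium to the lumen or the blood side, and Bsnd (4.35 ± 0.21), the chloride channel subunit barttin, rose. Egf, whose precursor is made in the distal tubule, rose by 6.81 ± 0.21, and Calb1, the calcium buffer of distal cells, by 6.23 ± 0.23. The distal salt cotransporter gene Slc12a3 rose by 3.16 ± 0.28. The calcium channel gene Trpv5 was not called, at -0.54 ± 0.21, and its adjusted p of 0.0407 belonged to a lower value at Wk4.

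Of 25 collecting duct genes, 21 rose (84%) and 0 fell, beside 11.8% and 9.41% of all genes (median difference 3.12). Aqp2, the vasopressin-controlled water channel of principal cells, had 45.1, 43.9 and 43.0 at E13, 8106, 1619.7, 6967 and 6619.7 at E18 and 30929.8, 34045 and 30065 at Wk4. E18 replicate 2 lay well below the other E18 arrays, and no array of one stage overlapped another stage; the total difference was 6.66 ± 0.40 (limma adjusted p = 2.28e-09). Its exit channels Aqp3 (4.22 ± 0.21) and Aqp4 (3.93 ± 0.27) rose, as did the vasopressin receptor gene Avpr2 (2.23 ± 0.23) and the sodium channel subunits Scnn1a (2.85 ± 0.23), Scnn1b (1.94 ± 0.21) and Scnn1g (3.12 ± 0.27). Intercalated cell genes rose with them: the proton pump subunits Atp6v1g3 (6.41 ± 0.26), Atp6v0a4 (5.66 ± 0.13) and Atp6v1b1 (3.31 ± 0.23), their transcription factor Foxi1 (4.16 ± 0.32) and the ammonia channel Rhcg (3.88 ± 0.29). The other probe sets of Aqp4 (1.21), Avpr2 (0.62) and Scnn1g (1.19) were under 3-fold. The genes not called were Slc14a2, a urea transporter (0.081 ± 0.21, with its 4 probe sets running from 0.081 to 2.73, so that they disagreed), Krt18 (0.25 ± 0.20), Elf5 (0.43 ± 0.24) and Nr3c2, the mineralocorticoid receptor (1.52 ± 0.20, under 3-fold).

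Of 37 fatty acid oxidation genes, 22 rose (59.5%, beside 11.8% of all genes), 0 fell and the median difference was 1.79. Acsm2, which activates medium-chain fatty acids, had 256, 394 and 247 at E13 and 115490, 95821 and 109167 at Wk4, and Slc27a2, a long-chain fatty acid carrier and activating enzyme, rose by 6.10 ± 0.29. Cpt1a, which admits long-chain fatty acids to mitochondria, rose by 3.86 ± 0.21, Acadm, the medium-chain dehydrogenase, by 3.91 ± 0.096 and the peroxisomal enzyme gene Ehhadh by 5.30 ± 0.19. The trifunctional protein subunits Hadha (0.81 ± 0.12) and Hadhb (0.62 ± 0.10) were not called. Of 49 respiratory chain and ATP synthase genes 3 rose (6.12%, below the share of all genes), Sdha (1.80 ± 0.086), Cox8a (1.68 ± 0.12) and Ndufv2 (1.67 ± 0.14), and by adjusted p alone 46 were higher at Wk4, against 31% of all genes. The number that rose was 7 without E13 replicate 1, 1 without E13 replicate 2 and 5 without E13 replicate 3. The median difference of this list was 0.95.

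Across the lists of tubule segments, collecting duct and fatty acid oxidation, in which limma called 0 genes lower, the genes lower at an unadjusted p under 0.05 numbered 1 in the thick ascending limb and distal list and 0 in proximal uptake, 0 in organic ion transporters, 0 in proximal metabolism, 0 in collecting duct and 0 in fatty acid oxidation. Over all genes, 36.6% were lower by adjusted p alone, which is a stricter limit.

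Of 14 renin-angiotensin and vasoactive genes, 8 rose (57.1%) and 1 fell (7.14%), beside 11.8% and 9.41% of all genes (median difference 1.82). Of the angiotensin receptor genes, Agtr2 fell and Agtr1a rose. Agtr2, the type 2 receptor gene known for fetal expression, had 3422, 4654 and 4025 at E13, 7452, 7828, 8195 and 9039 at E18 and 31.3, 281 and 362 at Wk4, a total difference of -3.18 ± 0.22 (limma adjusted p = 1.25e-08). Agtr1a, the type 1a receptor gene, which mediates vasoconstriction and salt retention, had 1864, 1882 and 1869.7 at E13 and 15670.5, 10606 and 12293 at Wk4 and rose by 2.60 ± 0.18. Klk1, tissue kallikrein of the connecting tubule, rose by 5.41 ± 0.16, Kl, the Klotho gene, by 2.57 ± 0.24, Ptgs2, the inducible cyclooxygenase, by 2.70 ± 0.28 and Agt, angiotensinogen, by 1.71 ± 0.29. For Enpep, an angiotensin-cleaving peptidase, the probe set used gave 4.997 ± 0.24 and its other probe set -0.19, so the gene's probe sets disagreed. The other probe set of Agtr2 was at -1.11, under 3-fold.

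Genes that were called in both steps in the same direction show a change that builds up. Both steps share the E18 arrays, so an error in E18 moves them in opposite directions, and neither is independent of the total. There were 126 such genes higher (1.06% of those tested) and 14 lower (0.117%), or 165 probe sets higher (0.73%) and 26 lower (0.115%), and every one of these genes was also called between Wk4 and E13. For comparison, 2.63% of genes rose and 0.369% fell from E13 to E18, and 7.06% rose and 6.65% fell from E18 to Wk4. The median levels of the 126 genes were 270.0 at E13, 2706 at E18 and 28613 at Wk4, and the share of the total difference reached at E18 ran from 21.9% to 69.1%, with a median of 44.4%. Of these genes, 81 had every E13 array at or below its 40th percentile. The later step was larger than the earlier one for 55 of them and smaller for 14 by limma's test of the difference (adjusted p alone). Over all genes this signed difference, later minus earlier step, was above 0 at an adjusted p under 0.05 for 12.5%. It was below 0 at the same limit for 25.1%. Those below 0 include genes whose later fall was the larger, such as Igf2 (-0.17 and then -5.57), so these shares are not shares of step size. The lists described here held 50 of the 126.

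The 8 genes with the largest smaller step include genes of the proximal tubule. Cyp2c23 rose by 4.05 ± 0.22 and then by 4.29 ± 0.22, with 6893, 3851, 5536 and 5017 on the E18 arrays, and 48.6% of its total had been reached at E18. Slc7a13 rose by 4.42 ± 0.16 and 3.83 ± 0.16. Hnf4a, the nuclear receptor that directs proximal tubule genes, had 5431, 3606, 5469.9 and 4775 at E18 and rose by 4.04 ± 0.15 and 3.68 ± 0.15 in the probe set used. The remaining genes named by the rule showed the same pattern of stages that did not overlap. Agxt2 rose by 3.77 and 3.78, Slc34a1 by 3.73 and 4.41, Hao2 by 3.60 and 4.85, and Ass1 by 3.80 and 3.51. Defb1, an antimicrobial peptide gene of distal and collecting epithelium, had 45.8, 18.5 and 165 at E13, 4961, 6597, 5043 and 5294 at E18 and 76148, 80887 and 68459.8 at Wk4.

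By list, 19 of 31 proximal uptake genes rose in both steps, 11 of 31 proximal metabolism genes, 2 of 19 organic ion transporters, 6 of 22 thick ascending limb and distal genes and 6 of 25 collecting duct genes, beside 1.06% of all genes. The median first and second steps were 1.97 and 3.56 for proximal uptake, 0.67 and 3.45 for organic ion transporters and 0.67 and 4.45 for metabolism. For the collecting duct they were 1.504 and 1.74. Within the uptake list, Lrp2 rose by 3.77 and then 1.87 and Pdzk1, the scaffold of brush border transporters, by 4.41 and then 2.65. Slc5a12, a lactate transporter, was not called in the first step (0.00039 ± 0.22) and then rose by 4.71 ± 0.22. Of the 104 promoters of genes that rose in both steps, 17 held GTTAAT (16.4%) and 5 held CAAAGTCC (4.81%), and these genes overlap with the proximal lists counted above.

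The 14 genes that fell in both steps had median levels of 15726 at E13, 3290 at E18 and 212 at Wk4. Hbg1 had steps of -4.66 and -3.26 on the log2 scale, and Hbz of -5.81 and -2.58. Crabp1 had 47517, 37705 and 37558 at E13, 6639, 8843, 10290.3 and 6349.9 at E18 and 784, 622 and 379.8 at Wk4, stepping down with no overlap between stages. Cdh22, a cadherin gene, had differences of -2.29 and -1.97, Arhgap28 -1.75 and -2.15, Spin2a -2.14 and -2.08, and Fndc3c1 -3.66 and -2.23. For Lingo1, a membrane protein gene of neurons, the probe set used had -1.81 and -2.82, but its 3 probe sets ran from -4.63 to -0.07 in the total.

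**Figure D2:**
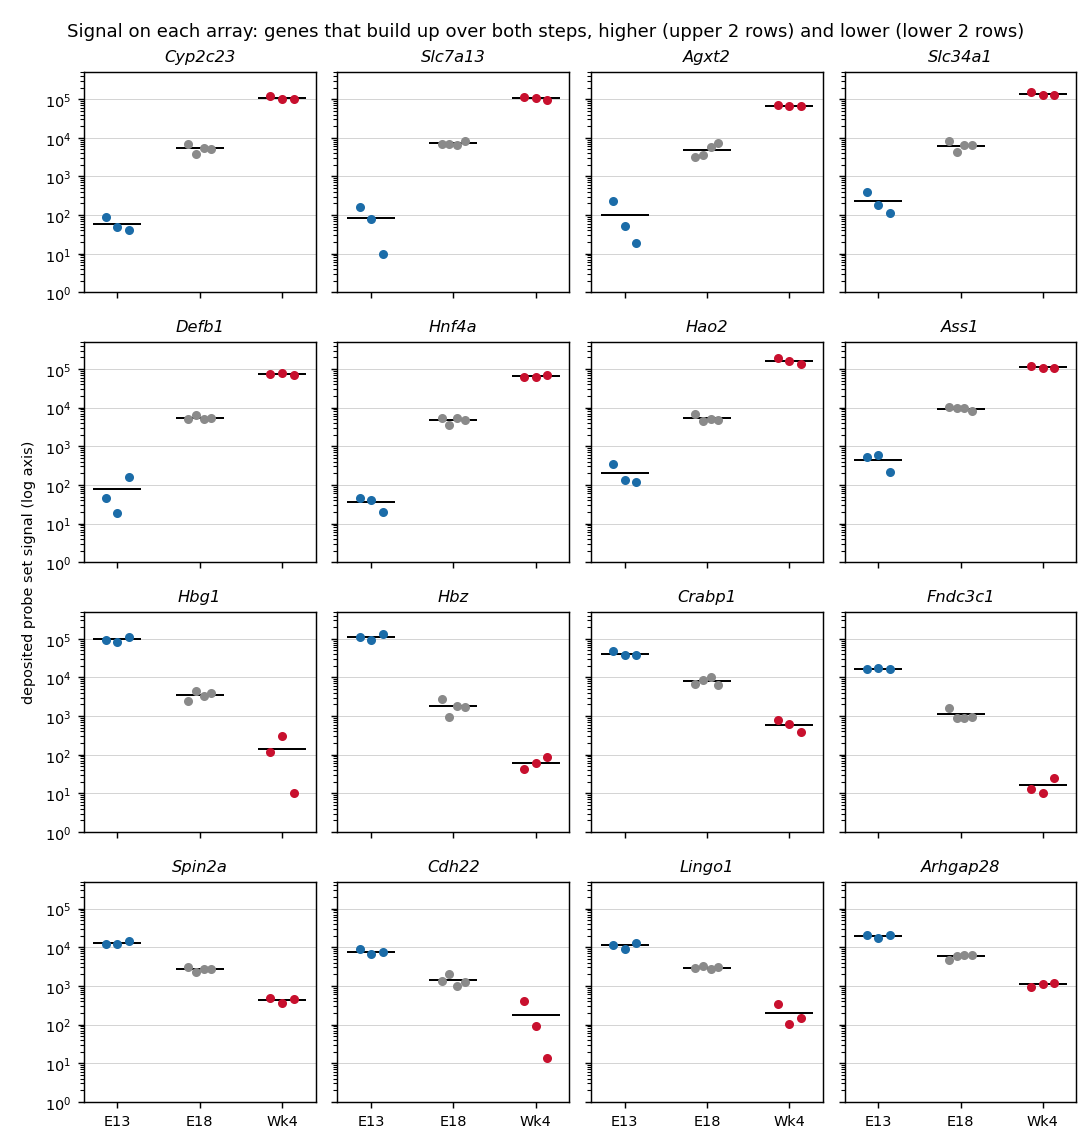
Deposited probe set signal (log axis) on each E13, E18 and Wk4 array for the 8 genes higher and the 8 lower with the largest smaller step among those called in both steps; points are arrays and bars group means. Each gene's 3 stages are separate, as for Slc34a1 with all E18 arrays between its E13 and Wk4 arrays.

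A change can also build up without either step passing 3-fold. Of the 1401 genes that rose in total, 464 (33.1%) were called in neither step, and of the 1122 that fell, 405 (36.1%). In 339 and 209 of these the adjusted p was under 0.05 in both steps in the direction of the total. Examples, chosen after their values were seen, are Slc15a1, a peptide transporter gene, at 1.53 ± 0.20 and 1.32 ± 0.20, and Il4r, an interleukin receptor gene, at 1.39 ± 0.20 and 1.47 ± 0.20. Among the genes that fell, Wasf1, an actin regulator, had -1.06 ± 0.15 and -1.57 ± 0.15, and Efnb3, an ephrin, -1.35 ± 0.22 and -1.24 ± 0.22. Their totals were 2.85, 2.86, -2.63 and -2.59.

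Of 52 replication and mitosis genes, 48 fell and 0 rose, with a median difference of -2.85, against 9.41% of all genes falling. Ttk, a spindle checkpoint kinase, had 11654, 12702 and 15074 at E13 and 334, 218 and 18.3 at Wk4, with no overlap (difference -4.92 ± 0.24, limma adjusted p = 2.72e-10). The checkpoint kinase genes Bub1b (-4.68 ± 0.22) and Bub1 (-3.95 ± 0.17), the cyclin gene Ccna2 (-4.64 ± 0.21) and the proliferation marker Mki67 (-3.39 ± 0.21) fell. Genes of DNA replication fell as well, among them Cdt1, which licenses origins (-3.89 ± 0.18), and the helicase subunits Mcm6 (-3.63 ± 0.16) and Mcm2 (-2.73 ± 0.19). At an unadjusted p under 0.05, 0 of the list were higher, beside 31% of all genes higher by the stricter adjusted p alone. The 4 genes not called were E2f1 (-1.04 ± 0.15), Kif11 (-1.07 ± 0.14), Tk1 (-1.24 ± 0.17, with another probe set at -1.61) and Prc1 (-1.53 ± 0.16), each lower at Wk4 by under 3-fold in the probe set used. The decline did not build up over both steps: the median of the first step was -0.21 and that of the second -2.76, and limma called 0 of the 52 genes in the first step, with 16 lower and 1 higher at an unadjusted p under 0.05. Mki67 had 16282, 24453 and 19979 at E13, 18084, 16599.9, 19041 and 23876 at E18 and 2383, 1646 and 1141 at Wk4.

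Promoters of Bub1b and Cdk1 are shown because they hold the letters of the cell cycle homology region (CHR, TTTGAA), through which many mitotic genes are known to be repressed in resting cells. They lie at chr3:126016817-126017116, plus strand, and chr20:19265043-19265342, plus strand (RefSeq, GRCr8, the same 300-base windows). Capitals mark TTTGAA and, in Cdk1, the CCAAT box, read as ATTGG on the opposite strand.
Bub1b: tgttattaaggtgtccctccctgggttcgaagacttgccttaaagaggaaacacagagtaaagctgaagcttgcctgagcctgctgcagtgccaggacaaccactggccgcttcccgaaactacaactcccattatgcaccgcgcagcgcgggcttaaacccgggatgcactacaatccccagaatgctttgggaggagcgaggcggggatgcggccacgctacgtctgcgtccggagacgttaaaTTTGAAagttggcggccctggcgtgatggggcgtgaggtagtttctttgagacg
Cdk1: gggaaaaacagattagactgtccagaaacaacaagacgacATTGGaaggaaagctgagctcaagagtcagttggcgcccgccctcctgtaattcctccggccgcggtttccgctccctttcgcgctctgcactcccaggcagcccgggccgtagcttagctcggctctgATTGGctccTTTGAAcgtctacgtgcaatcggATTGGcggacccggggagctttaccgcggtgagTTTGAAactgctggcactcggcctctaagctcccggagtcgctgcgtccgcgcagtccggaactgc
The marked matches do not overlap each other. In Bub1b TTTGAA begins 4 bases before the start, and in Cdk1 at 72 and 16 bases before it, with CCAAT on the opposite strand at 210, 81 and 49. TTTGAA was found on either strand in 19 of 44 promoters of the list (43.2%) and in 11.6% of those of all tested genes. CCAAT was found in 30 (68.2%, beside 37.6%) and TTCCCGC, the core of an E2F site, in 10 (22.7%, beside 8.19%). Other lists held these letters too: TTTGAA stood in 4 of 11 erythroid promoters (36.4%) and CCAAT in all 6 MHC class II promoters. GTTAAT was found in 0 of the 44. Cdk1, the mitotic kinase gene, had 18339, 20409 and 22301 at E13 and 3329, 2429.6 and 1554 at Wk4.

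Of 18 nephron progenitor genes, 10 fell (55.6%) and 1 rose (5.56%), beside 9.41% and 11.8% of all genes (median difference -2.09). Meox1, a homeobox gene of the cap mesenchyme, had 4515, 4141 and 3771 at E13 and 27.4, 81.9 and 15.99 at Wk4 and fell by 3.82 on the log2 scale. Igf2bp1, an RNA-binding protein gene of fetal tissue (-3.56 ± 0.30), Eya1, a cofactor needed to keep progenitors (-3.40 ± 0.21), and Uncx (-2.70 ± 0.37) fell. Wt1, which is active in progenitors and later in podocytes, went from 28347, 18456 and 18116 to 2355, 2324 and 2476 (-3.01 ± 0.16). Crym, a thyroid hormone-binding protein gene, was the member that rose (3.39 ± 0.19). Gdnf, the ligand that draws out the ureteric bud, was at 376 ± 217 at E13 and 102 ± 89.8 at Wk4 (SD, n = 3 each) and was not called (-0.77 ± 0.29). Pax2 was not called either (-0.18 ± 0.37, adjusted p = 0.697).

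Of 11 ureteric bud tip genes, 4 fell (36.4%) and 0 rose, beside 9.41% and 11.8% of all genes (median difference -0.55). Ret, the receptor for the Gdnf signal, had 4512, 4619 and 4522 at E13, 2914, 2165, 3164 and 3150.0 at E18 and 44.1, 22.1 and 31.1 at Wk4 (difference -3.99 ± 0.17). Its co-receptor gene Gfra1 (-1.77 ± 0.23) and its targets Etv4 (-3.32 ± 0.41) and Etv5 (-1.94 ± 0.19) fell too, but the other probe set of Etv5 was at -0.017. Wnt11, another target, was not called (-0.24 ± 0.41): it had 70.4, 54.2 and 115 at E13, 306, 1040.3, 1082 and 99.2 at E18 and 30.6, 36.5 and 12.6 at Wk4. Emx2 (-0.11 ± 0.15) and Lhx1 (0.21 ± 0.34) were not called either. At an unadjusted p under 0.05, 0 genes of the list were higher at Wk4, beside 31% of all genes higher by the stricter adjusted p alone.

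Of 24 stroma genes, 11 fell (45.8%) and 2 rose (8.33%), beside 9.41% and 11.8% of all genes (median difference -1.23). Postn, a matricellular protein gene, had 17279.6, 15870.4 and 17919 at E13 and 633, 165 and 474 at Wk4 (-4.70 ± 0.21). The homeobox genes Meis1 (-4.37 ± 0.17) and Meis2 (-3.49 ± 0.12), the retinoic acid synthesis gene Aldh1a2 (-3.54 ± 0.17) and Tbx18 (-3.47 ± 0.17), a gene of the ureteral mesenchyme, fell. Dcn, the proteoglycan decorin, rose by 3.64 ± 0.22, of which 91.3% had been reached at E18, and Ntn1, netrin, by 2.11 ± 0.19. Of 32 fibrillar matrix genes, 5 rose (15.6%) and 6 fell (18.8%), beside 11.8% and 9.41% of all genes, with a median of 0.098. These totals hide 2 opposite steps. From E13 to E18, 9 of the 32 rose and 0 fell (median 0.84), beside 2.63% and 0.369% of all genes. From E18 to Wk4, 1 rose and 10 fell (median -1.18), beside 7.06% and 6.65%. In the total from E13 to Wk4, single members moved both ways. Fbn2, the fetal fibrillin, had 8373, 18068 and 12083 at E13 and 47.5, 25.97 and 198 at Wk4 (-5.14 ± 0.25), while Fbn1 was not called (-0.52 ± 0.22). Vcan, versican (-3.79 ± 0.33), and Fbln1, fibulin (-3.10 ± 0.20), fell, and Timp3, a protease inhibitor (3.68 ± 0.13), Col6a3 (3.24 ± 0.15) and Fbln5 (2.80 ± 0.15), an elastic fibre protein, rose. Probe sets disagreed in size for Vcan (-4.76 to -1.27), Fbln1 (-3.10 to -0.52) and Col6a3 (1.44 to 3.24).

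Imprinted growth genes were mostly lower: of 16, 9 fell (56.25%) and 2 rose (12.5%), beside 9.41% and 11.8% of all genes (median difference -2.29). The share that rose was thus near that of all genes. H19, the noncoding RNA beside Igf2, had 75657, 54066 and 63563 at E13, 76182, 85757, 78807 and 58509.9 at E18 and 2294, 1351 and 734 at Wk4. H19 had a total difference of -5.31 ± 0.25, and neither it nor Igf2 was called from E13 to E18, with first steps of 0.21 ± 0.23 and -0.17 ± 0.19. Nnat (-4.53 ± 0.36), Grb10, a brake on insulin signalling (-3.93 ± 0.098), Ndn (-3.83 ± 0.18), Plagl1 (-2.90 ± 0.20) and Cdkn1c, a cyclin-dependent kinase inhibitor (-2.89 ± 0.17), also fell. The receptor that clears IGF2, Igf2r, was not called (0.32 ± 0.12). Those that rose were Dcn and Phlda2 (1.85 ± 0.24). Of 30 cytosolic ribosomal protein genes limma called 0, but by adjusted p alone 28 were lower at Wk4 (28 at an unadjusted p under 0.05), beside 36.6% of all genes, and the median was -0.75 in total and 0.038 in the first step. The widest were Rpl4 (-1.06 ± 0.094) and Rpl14 (-0.9995 ± 0.083). The deposited arrays were scaled to a common mean, so a change of all RNA would not be seen.

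Of 18 podocyte genes, 5 rose (27.8%) and 2 fell (11.1%), beside 11.8% and 9.41% of all genes, so the share that fell was near that of all genes (median difference 1.13). The number of podocyte genes that fell was 1 without Wk4 replicate 3. Nphs1, the slit diaphragm protein nephrin, had 23.9, 21.8 and 153 at E13, 2082, 3285, 2294 and 2361 at E18 and 1307, 1284 and 2027 at Wk4, with the E18 arrays above all others (total difference 2.42 ± 0.29). Rhpn1 (3.75 ± 0.21), Clic5 (2.36 ± 0.31), a podocyte foot process protein, Ptpro (1.82 ± 0.20), a receptor phosphatase, and Col4a4, a chain of the mature glomerular basement membrane (1.76 ± 0.25), rose, while Wt1 and Tcf21 (-1.63 ± 0.20) fell. The other probe sets of Nphs1 (1.104) and Rhpn1 (1.55) were under 3-fold. Of 25 early nephron and segment patterning genes, 10 rose (40%) and 2 fell (8%, again near the share of all genes). The median was 1.17, or 0.86 without E13 replicate 2. From E13 to E18, 13 of the 25 rose and 0 fell (median 1.61), beside 2.63% and 0.369% of all genes. From E18 to Wk4, 2 rose and 5 fell (median -0.53), beside 7.06% and 6.65%. Those that rose in total include factors that tubules keep, Hnf4a, Pax8 (2.85 ± 0.30), Irx1 (3.01 ± 0.16) and Irx3 (2.95 ± 0.16), and the cadherin genes Cdh16 (4.93 ± 0.19) and Cdh1 (1.68 ± 0.19). Wnt4, the signal that turns mesenchyme into epithelium, had 3373, 3078 and 2265 at E13, 7691, 5493, 7631 and 5989.9 at E18 and 67.7, 691 and 297 at Wk4 and fell by 2.46 on the log2 scale in total, as did Hey1, a Notch target (-1.94 ± 0.25).

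**Figure D3:**
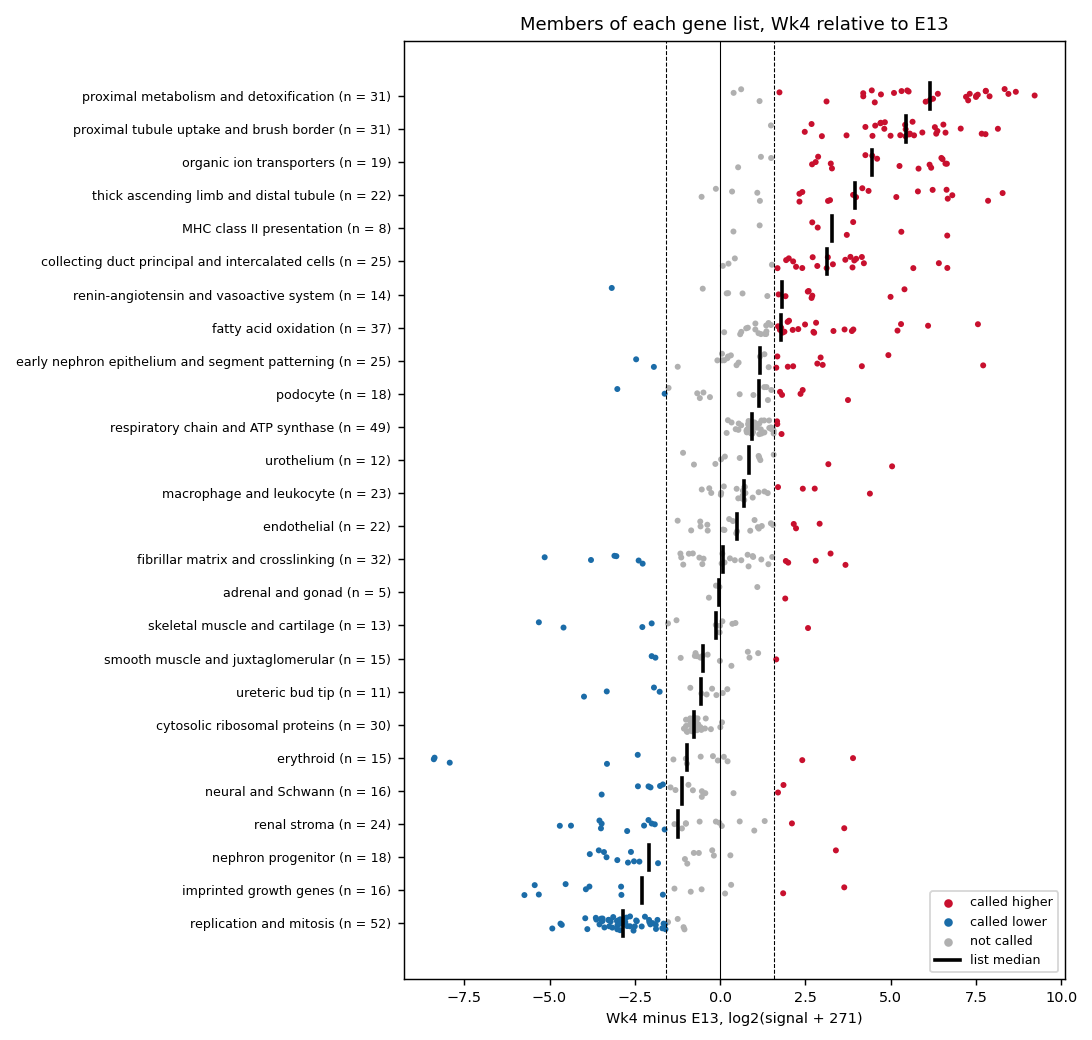
Wk4 minus E13 difference (log2 scale) of every measured gene of each list; points are genes (red called higher, blue called lower, grey not called), bars list medians and dashed lines the 3-fold limits. The 5 tubule and collecting duct segment lists lie almost wholly above 0, replication and mitosis wholly below, and matrix and podocyte genes on both sides.

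**Figure D4:**
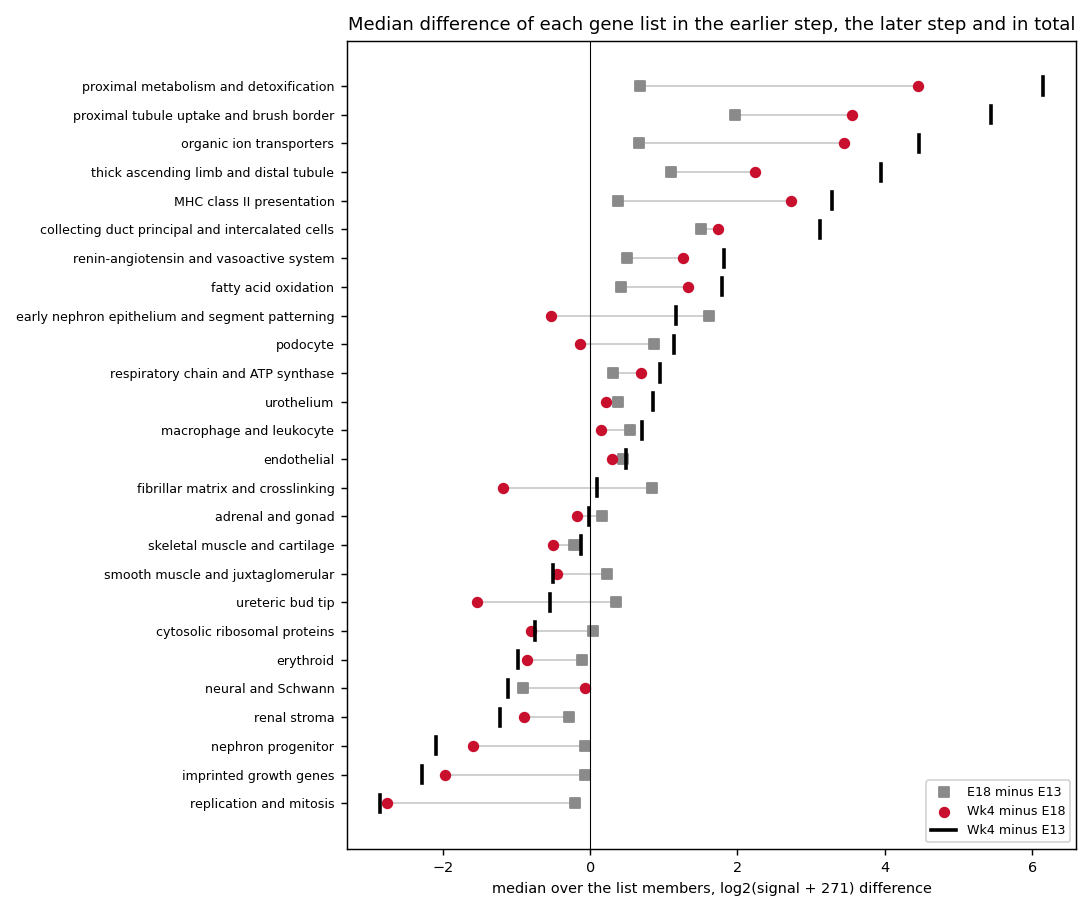
Median difference (log2 scale, horizontal axis) over the members of each list, with squares for E18 minus E13, circles for Wk4 minus E18 and bars for Wk4 minus E13. Proximal uptake genes have both steps well above 0 (1.97 and 3.56), replication and mitosis genes a first step near 0 (-0.21) and a low second one (-2.76).

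The lists for blood, vessels and neighbouring tissues show what else moved with stage, and their shares stand beside 11.8% of all genes rising and 9.41% falling. Of 15 erythroid genes 5 fell and 2 rose (median -0.97). The adult globin gene Hbb rose by 3.90 ± 0.12, from 6265, 5665 and 6204 at E13 to 112042, 90726 and 80934 at Wk4, while the embryonic globins fell as given above, and Alas2, the haem synthesis enzyme of red cells, was not called (0.22 ± 0.17). The summed signal of the list ran from 342148 to 425599 at E13 and from 108590 to 145277 at Wk4, and the part of blood content in other results was not tested. Of 22 endothelial genes 3 rose (13.6%, near the share of all genes) and 0 fell (median 0.49): Ehd3, known in glomerular endothelium (2.92 ± 0.27), Esm1 (2.23 ± 0.28) and Ptprb (2.16 ± 0.19, its other probe set 0.92). The general endothelial genes Kdr (0.088 ± 0.27), Pecam1 (1.14 ± 0.22) and Cldn5 (-1.24 ± 0.21) were not called.

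Of 23 macrophage and leukocyte genes 4 rose (17.4%) and 0 fell (median 0.71). Lyz2, lysozyme, rose by 4.39 ± 0.16, Ctss, cathepsin S, by 2.77 ± 0.19, Fcer1g by 2.42 and C1qa by 1.70. Among the members not called were C1qc (1.40), Tyrobp (1.30), Csf1r (0.71 ± 0.16) and Cd68 (0.53 ± 0.32). By adjusted p alone 11 of the 23 were higher at Wk4 and 0 lower, beside 31% and 36.6% of all genes. Of 8 MHC class II genes, 6 rose and 0 fell, with a median of 3.29, or 2.30 without Wk4 replicate 1 and 2.57 without Wk4 replicate 3. Cd74, the invariant chain, had 259, 96.1 and 392 at E13, 670, 604, 576 and 466 at E18 and 50612, 48849.7 and 53077 at Wk4 (6.66 ± 0.19). RT1-Da, a class II chain of the rat, rose by 5.31 ± 0.19, while Ciita, the activator of these genes, was not called (0.39 ± 0.27). RT1-Bb was called although its arrays overlapped, with 1123, 622 and 277 at E13 and 19846, 899.9 and 10858 at Wk4. At an unadjusted p under 0.05, the genes lower at Wk4 numbered 0 in the macrophage and leukocyte list, 0 in the MHC class II list and 4 in the endothelial list, in each of which limma called 0 lower.

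Smooth muscle genes were mostly not called: of 15, 1 rose (6.67%) and 2 fell (13.3%, median -0.51). These were Synm (1.65 ± 0.24), which was not called without E13 replicate 1 or without E13 replicate 3, Des, desmin (-2.01 ± 0.20), and Myocd (-1.90 ± 0.39), which was not called without E13 replicate 2. Of 16 neural and Schwann genes 6 fell and 2 rose (median -1.12), with Isl1, a homeobox gene, at 3231, 3822 and 6632 at E13 and 345, 109 and 37.7 at Wk4 (-3.47 ± 0.41). Of 13 skeletal muscle and cartilage genes 4 fell and 1 rose (median -0.13). The cartilage collagens Col2a1 (-5.31 ± 0.39) and Col9a1 (-4.59 ± 0.27) fell furthest, with Col2a1 at 36127, 18570.1 and 14752 at E13. The 3 probe sets of Col2a1 ran from -5.31 to -1.74. Cartilage genes were mixed, as Matn1 was the member that rose (2.58) and Acan was not called (0.36). The muscle genes Ckm (-0.013 ± 0.32) and Myog (0.067 ± 0.21) were not called. Summed signals of the muscle and cartilage list were 49090.2 to 75521 at E13 and 11411 to 12618 at Wk4, and of the neural list 19824 to 23560.0 and 9129 to 12008. The part of neighbouring tissue in the E13 samples was not tested. Of 12 urothelium genes 2 rose (16.7%), the keratins Krt7 (5.04 ± 0.22) and Krt8 (3.17 ± 0.12), which collecting duct cells also express, and the uroplakin genes Upk1a (1.57 ± 0.31) and Upk2 (1.18 ± 0.30) were not called. Of 5 adrenal and gonad genes Fdx1 rose (1.91 ± 0.13) and Cyp11a1 was not called (1.09 ± 0.20).

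A comparison of the ends alone misses genes that moved and came back. Called in both steps in opposite directions were 19 genes (0.159% of those tested), 18 higher and then lower and 1 lower and then higher. Afp, the fetal plasma protein, had 65.8, 13.4 and 44.0 at E13, 3216, 2669.8, 2944 and 2937 at E18 and 1052, 90.7 and 218 at Wk4, steps of 3.36 ± 0.33 and -2.38 ± 0.33. Col14a1, a fibril-associated collagen (3.30 and -2.33), Il13ra2, a decoy interleukin receptor (3.05 and -2.90), and Gpr37, an orphan receptor (3.03 and -2.41), peaked in the same way. Their total differences were 0.98, 0.97, 0.15 and 0.62. Lhx1, a homeobox gene of the first nephron vesicles, had 1356, 901 and 1025, then 5685, 5362, 5040.4 and 3305, then 897, 1539.9 and 1546, and Osr2 had steps of 1.96 and -1.73. The first step of Lhx1 was thus nearly undone by Wk4, while Afp stayed above its E13 mean without being called. Tnnt2, a troponin gene, fell in total (-1.72 ± 0.25, not called without Wk4 replicate 1 at -1.56 or replicate 3 at -1.52) after steps of 1.68 and -3.40, and Tcp11 had steps of 2.77 and -3.20. Ddc, the decarboxylase that makes dopamine in proximal cells, was the gene that went the other way, with 5495, 4391 and 6689 at E13, 1637, 1167, 1626 and 1356 at E18 and 22485, 19199 and 20971 at Wk4 and a total difference of 1.88 ± 0.21 (0.84 in its other probe set).

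**Figure D5:**
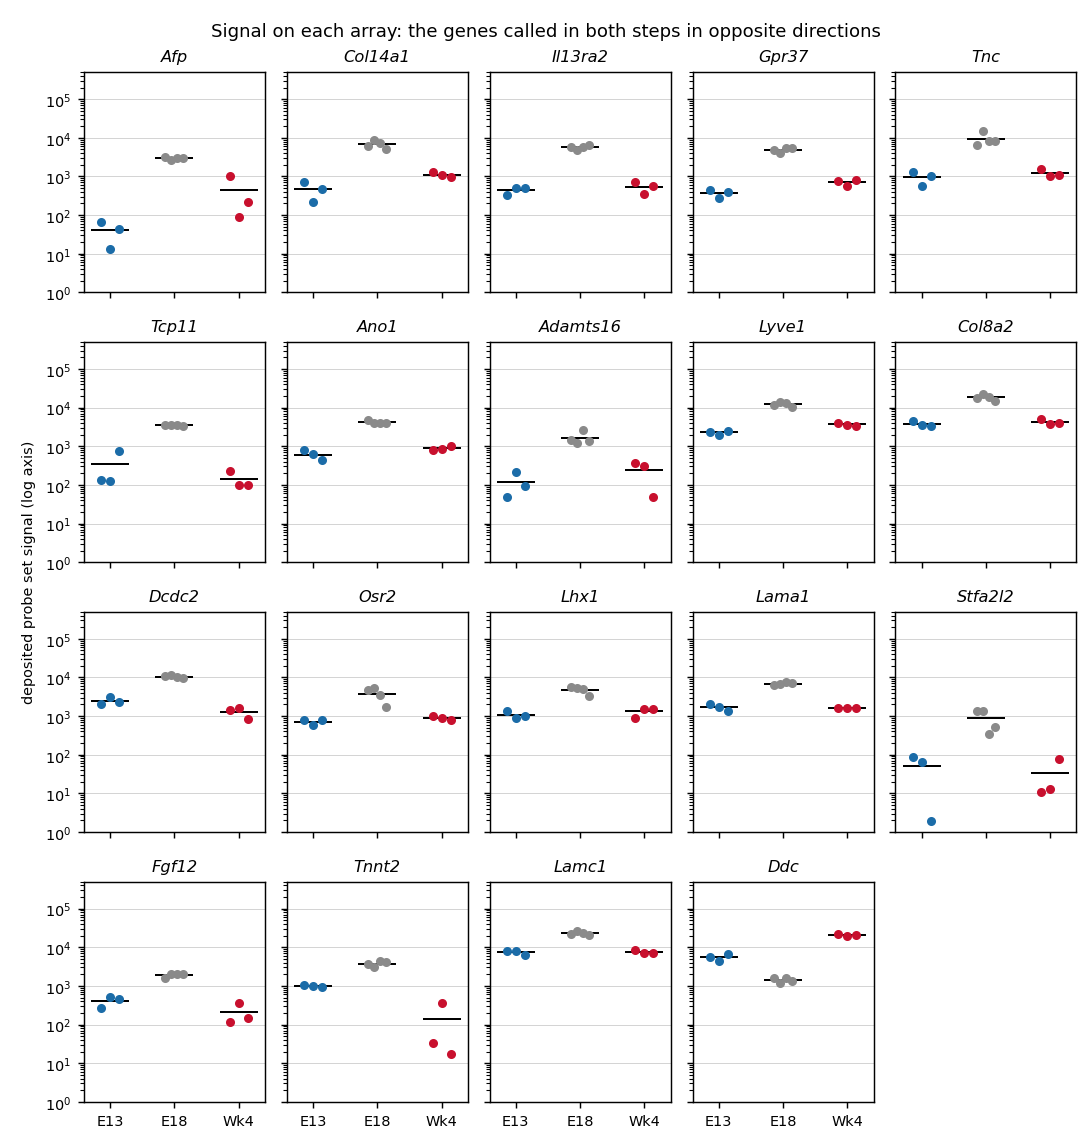
Deposited probe set signal (log axis) on each E13, E18 and Wk4 array for the 19 genes called in both steps in opposite directions; points are arrays and bars group means. In 18 genes the E18 arrays are the highest group, and in Ddc they are the lowest.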

How the data were processed

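Signals of 31042 probe sets besides 57 controls were measured on 12 arrays from biotin-labelled rat RNA (standard Affymetrix labelling, per the labels' protocols). The submitters' processing notes name GCOS as the software behind the authors' deposited values, which are linear intensity values; the sources used here do not give its settings. After trimming 2% of values at either end, the array means were 2499.98 to 2499.99, so each array had been scaled to a common mean. No detection calls were used, the number of arrays limits the precision, and no 2 arrays were identical.

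Controls were left out. Values were used as log2(signal + 271.2), the 25th percentile of all values, which shrinks differences at low signal. Medians of the arrays spanned 0.27 on this scale, so no further normalization was applied. A probe set was kept (22599, with 8443 removed) if on 2 arrays or more it exceeded that array's 40th percentile. Names came from the platform annotation: a single symbol was given for 20826 probe sets, several for 436 and none for 9780, and 20758 matched a current RefSeq gene. Of 11920 genes, the 3451 with more than 1 kept probe set were represented by the one with the highest mean.

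All 12 arrays entered 1 fit of 4 group means in limma 3.58.1 (R 4.3.3; lmFit, eBayes with an intensity trend, 8 residual degrees of freedom), with contrasts for the total, each step and their difference. Tests were two-sided, adjusted by Benjamini-Hochberg over all kept probe sets, and were checked on simulated data. The simulation placed changes only in probe sets of middle to high signal and used noise independent between arrays. It therefore does not cover genes at low signal or the embryonic arrays whose residuals went together. No test of gene sets was made. Replicate numbers do not pair the samples. The genes, lists and tests were chosen with earlier results of these data known. Named by rule were the 10 highest and 10 lowest called genes whose arrays do not overlap, the 2 widest of each list, the 8 in each direction with the largest smaller step among those called in both, and the 4 widest per step among genes called in opposite directions. Other list members are examples. Motif search and promoters used RefSeq windows on GRCr8, the first listed start of each gene. Alternatives covered the pseudocount, normalization, filter, fold, variance model, arrays in the fit, a replicate block and each E13, E18 or Wk4 array left out; the embryonic array sets were added after the data were seen.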

Additional observations from a re-analysis of the deposited data

Results flagged for a closer look

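Named genes were searched at E18, the only kidney group of 4 arrays. The search was for an array whose gap to its nearest neighbour took up most of the group's range. Gap and range were taken on the log2(signal + 271.2) scale, while the levels printed beside them are deposited signals. Of 77 genes tested, 7 had such an array, and chance flags about 1 in 20 groups. The gap divided by the range was 0.910 for Kap, where E18 replicate 4 had 22.9 and the others 48.7 to 51.3, all dim. It was 0.977 for Xist, where E18 replicate 2 had 52818 and the others 18.97 to 55.9. The Y-linked Eif2s3y stood at 4.94 on that array and at 12750, 13467 and 19792 on the others, so the sex make-up of replicate 2 differed. For Aqp2 the gap divided by the range was 0.869, with E18 replicate 2 at 1620 (others 6620 to 8106), and for Crabp2 0.863, with the same array at 6945 (others 8890 to 9243). For Fndc3c1 it was 0.875, with E18 replicate 1 at 1613 (others 905 to 976). For Col2a1 it was 0.941 and for Krt7 0.834, with E18 replicate 4 lowest in both, at 6674 (others 9283 to 9477) and 4325 (others 4823 to 4928). The E13 and Wk4 groups have 3 arrays and were not searched.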

How the results depend on the processing

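In what follows counts are of probe sets called higher and lower at Wk4, then of those building up higher and lower; as reported they were 2123, 1912, 165 and 26. With no pseudocount they were 2819, 2944, 347 and 64, and with 4 times the pseudocount 1342, 958, 54 and 10. At 2-fold they were 3600, 4265, 489 and 135, and by adjusted p alone 5926, 7780, 1534 and 1079. With each E13, E18 or Wk4 array left out in turn they ran from 2108 to 2192, 1864 to 2033, 162 to 174 and 23 to 35. Replicate numbers did not pair the samples (correlations of same-numbered E13 and E18 arrays 0.31, -0.17 and -0.15), and with the number as a replicate block the counts were 2123, 1912, 170 and 30. Within embryonic array set 1 (E13 replicate 1, E18 replicates 1 to 3), where E13 has 1 array and its spread is taken from the other groups, they were 2122, 1958, 187 and 25, and within set 2 (E13 replicates 2 and 3, E18 replicate 4) 2192, 2033, 163 and 22. The share of called probe sets that were higher ran from 43.2% to 58.3% over the alternatives. No named gene reversed direction under the 26 alternatives, and 12 of 77 changed their call under at least 1; the cause was not tested. Low signal limits how large a difference can be read: 462 genes that rose had all E13 arrays at or below the 40th percentile.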
